A study of Mus musculus with 82 samples.

Results

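Selp encodes P-selectin and Selplg encodes PSGL-1, the selectin P ligand. These 2 genes were taken by symbol from the 55376 genes of the RNA-seq count tables, and their chromatin regions were taken by the gene name given to each histone peak or by position. P-selectin is an adhesion receptor that platelets keep in alpha granules and endothelial cells keep in Weibel-Palade bodies, and both cell types move it to the surface when activated. PSGL-1 is a mucin-like protein of leukocytes and their progenitors, and it binds P-selectin only after its O-glycans have been built, fucosylated and sialylated and its tyrosines sulfated. In the bone marrow this pair of proteins takes part in the rolling and homing of hematopoietic cells.

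The libraries came from male C57BL/6J mice. Young mice came from The Jackson Laboratory and old mice from the NIA Aged Rodent Colony, so age and source of the animals cannot be told apart. Young hematopoietic stem cells (YHSC) were sorted from pooled mice of 3 to 4 months and old ones (OHSC) from single mice of 24 to 26 months, as LSK CD34- Flk2- CD150+ cells, with 4 YHSC and 8 OHSC RNA-seq libraries. OHSC were also transduced with lentivirus carrying a control shRNA, shRNA1 or shRNA2, where both knockdown hairpins aim at a shorter variant of Btaf1. These cells were sequenced either after 3.5 days in culture, or after about 4 months in lethally irradiated, young female CD45.1 recipients. From the recipients, donor-derived GFP+ LSK CD48- CD150+ cells of 2 to 4 mice were pooled for each library. There were 2 libraries for each hairpin and setting. Common myeloid (CMP), granulocyte-macrophage (GMP) and megakaryocyte-erythroid (MEP) progenitors of young mice gave 2 libraries each. ATAC-seq, which measures chromatin accessibility, had 4 libraries of each age, and ChIP-seq for H3K27ac, a mark of active promoters and enhancers, had 2 of each age. ChIP-seq for H3K4me3 and H3K27me3 was used from 2 YHSC libraries each.

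The 30 RNA-seq libraries held 20475764 to 42737054 reads on genes and the 8 ATAC-seq libraries 15427933 to 26260337 reads on regions. A summed level of 7 long-term HSC markers was 1272 to 1516 CPM (reads divided by library size, with library sizes scaled by the TMM method over all 30 libraries) in YHSC and OHSC and 9.91 to 58.1 CPM in CMP, GMP and MEP. The erythroid markers summed to 7824 to 8330 CPM in MEP, and the granulocyte and monocyte markers to 70125 to 71121 CPM in GMP, so the sorted populations carried the markers of their labels. The megakaryocyte and platelet markers were an exception, since they summed to 57.4 to 77.4 CPM in MEP and to 726 to 740 CPM in CMP. Btaf1 was lower in all knockdown libraries than in their controls, at 0.806 of the control in culture and 0.773 after transplantation. The count per gene cannot separate its variants.

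Selp lies on the plus strand of chromosome 1 (mm10, chr1:164115264-164150026), and its longest coding transcript has 16 exons. Selplg lies on the minus strand of chromosome 5 (chr5:113818536-113832644), and its main coding transcript, with 2 exons, starts at position 113830501. The 250 bases before the Selp start (chr1:164115014-164115263, plus strand, GRCm38.p6, RefSeq) are shown because an accessible region and an H3K27ac peak that differed with age overlap them.
Selp promoter: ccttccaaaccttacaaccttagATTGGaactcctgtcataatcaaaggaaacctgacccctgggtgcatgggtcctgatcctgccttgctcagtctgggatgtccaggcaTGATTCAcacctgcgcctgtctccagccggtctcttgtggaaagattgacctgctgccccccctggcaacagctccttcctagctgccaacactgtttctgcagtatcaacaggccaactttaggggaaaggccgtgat
Capitals mark the 2 matches among 8 short motifs searched on both strands, and the matches do not overlap each other. TGANTCA, the AP-1 letters, stands 139 to 133 bases before the start, and it occurs in 6.75% of 32851 promoter windows of this length. CCAAT stands on the minus strand 227 to 223 bases before the start and occurs in 33.8% of windows. Searched and not in the window were the TATA box letters TATAAA (in 12.4% of windows), the GATA letters AGATAA (9.99%) and the ETS letters GGAAGT (19.7%). The same held for the RUNX letters TGTGGT (14%), the E-box letters CACGTG (6.02%) and the STAT letters TTCNNNGAA (7.02%). The window has 53.6% G and C with 3 CpG, against medians of 52.4% and 6 over all windows.

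Selp was about 10-fold higher in OHSC than in YHSC, while Selplg was not called different with age. The 4 YHSC libraries had Selp at 43.6, 46.5, 37.4 and 58.2 CPM. The 8 OHSC libraries ranged from 425 to 503 CPM with a median of 455 CPM, so the ages did not overlap and the lowest old library stood far above the highest young one. The log2 difference was 3.33 (SE 0.0955, 95% interval 3.12 to 3.53, adjusted p = 2.76e-12, edgeR quasi-likelihood test over 21522 genes), which ranked 29th from the highest. Over all genes tested 4.69% were called higher and 2.83% lower, where a call needs more than 1.5-fold and an adjusted p under 0.05. Selplg was 135, 124, 129 and 143 CPM in the YHSC libraries and 104 to 136 CPM in the OHSC libraries, with a median of 122 CPM. Its ranges overlapped, and the log2 difference of -0.11 had a 95% interval of -0.23 to 0.01 (adjusted p = 0.227), which lies inside the 1.5-fold limits.

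Per kilobase of exon, which allows the 2 genes to be set side by side, the RNA levels of Selp and Selplg changed order between the ages. Protein was not measured. Selp averaged 10.5 CPM per kilobase in YHSC, against 31.1 for Selplg, and 104 CPM per kilobase in OHSC, against 28.5 for Selplg. The ratio of Selp to Selplg within a library was 0.337 ± 0.0509 (SD, n = 4) in YHSC and 3.68 ± 0.406 (SD, n = 8) in OHSC. With the longest transcript as the length, the ratios were 0.235 and 2.54. Among 54510 genes with a length, Selp ranked 5712th from the highest in YHSC and 311th in OHSC, and Selplg 1728th and 1955th.

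**Figure D1:**
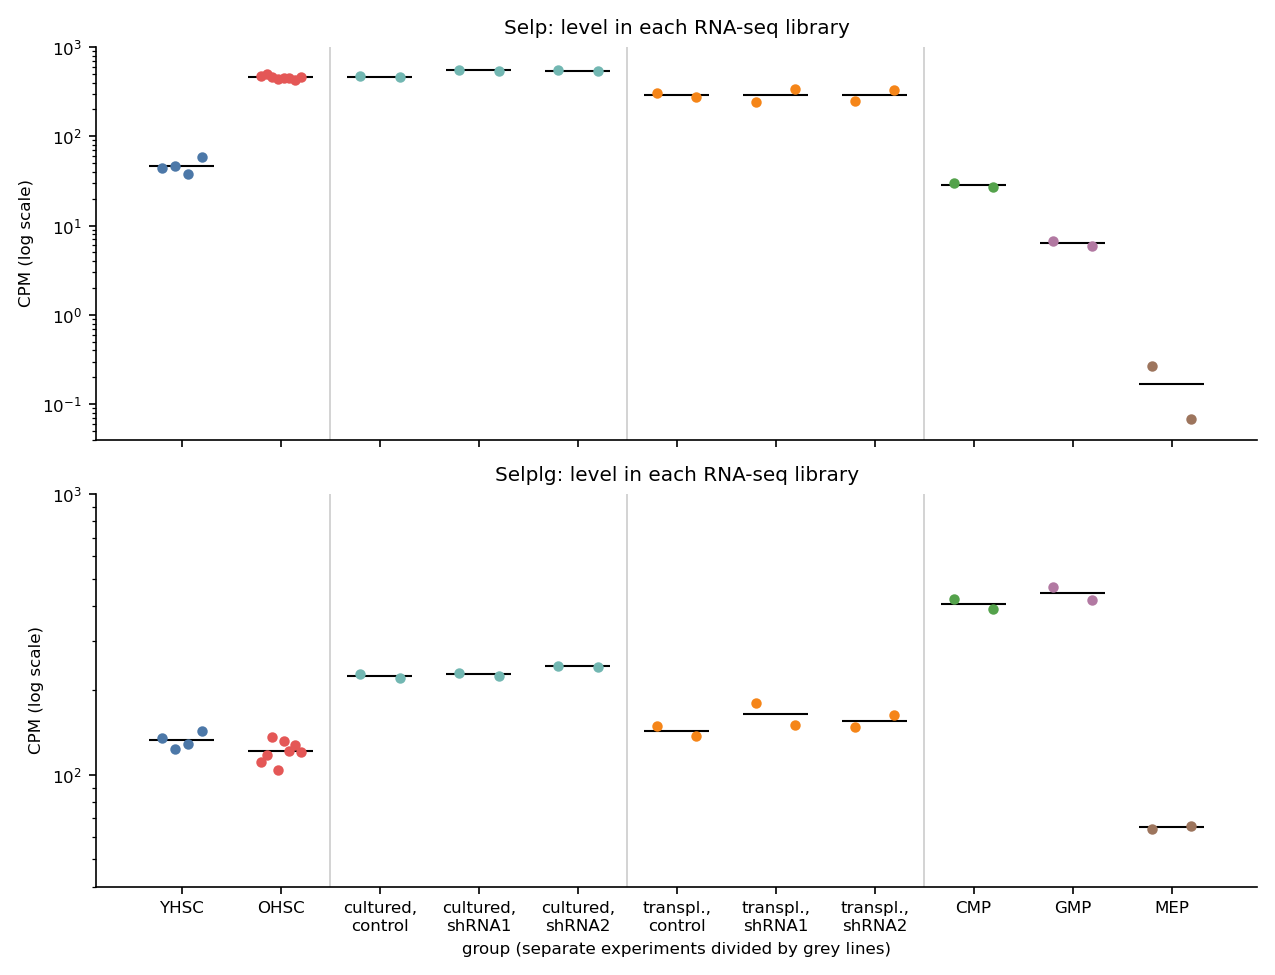
Level of Selp (top) and Selplg (bottom) in each of 30 RNA-seq libraries, in CPM on a log axis. Points are libraries, black lines are group means, and grey lines divide experiments prepared and sequenced separately. Selp is at 37.4 to 58.2 CPM in YHSC and 425 to 503 CPM in OHSC. In MEP of young mice, from a separate experiment, it is at 0.0682 and 0.271 CPM. Selplg is highest in GMP and CMP.

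Across the 11 groups the levels of Selp and Selplg followed different orders, but the experiments differ in kit, instrument and RNA extraction, so levels between experiments are given side by side with no test. Mean Selp stood at 546, 543 and 462 CPM in cultured cells with shRNA1, shRNA2 and control shRNA, next to 459 CPM in OHSC. It stood at 291, 290 and 287 CPM in transplanted cells with control, shRNA1 and shRNA2. YHSC followed at 46.4 CPM, then CMP at 28.5, GMP at 6.32 and MEP at 0.17 CPM. Neighbouring groups overlapped within the cultured shRNA1 and shRNA2 pair, between cultured control and OHSC, and among the 3 transplanted groups, whereas every other step in the order was free of overlap. Transplanted cells came from old donors and all 6 libraries (240 to 340 CPM) lay between the ranges of YHSC and OHSC.

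Selplg was highest in GMP (443 ± 34.4 CPM, SD, n = 2) and CMP (407 ± 23.7 CPM), which overlapped. Cultured cells had 225 to 244 CPM as group means and transplanted cells 143 to 165 CPM. YHSC and OHSC had 133 and 122 CPM, and MEP the lowest level, 65.0 ± 1.23 CPM (SD, n = 2). In that lower part of the order each group from transplanted shRNA1 through shRNA2, transplanted control and YHSC to OHSC overlapped the next, while transplanted shRNA1 (150 and 180 CPM) stood just above transplanted control (137 and 149 CPM).

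The genes whose 11 group means of log2 CPM were most like those of Selp, among 29260 genes, were Gm16548 (Pearson r = 0.996), Gm16587 (0.996), Gm5600 (0.991), Tmod3 (0.989) and Gchfr (0.985). For Selplg they were Man2b1 (0.987), Gm9844 (0.979), Shmt1 (0.974), Serpine2 (0.973) and Gm19582 (0.973). These correlations are descriptions over 11 points that share experiments. Gm16548 and Gm16587 lie on the minus strand across the 3′ part of Selp, and whether the counting used strand is not stated in the sources used here, so reads of Selp and of these 2 genes cannot be told apart with certainty. Tmod3, a tropomodulin that caps actin filaments, averaged 331 CPM in OHSC and 266 CPM in YHSC, a much smaller step than that of Selp. Man2b1, the lysosomal alpha-mannosidase, went from 418 CPM in GMP to 61.2 CPM in MEP.

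The genes around Selp on chromosome 1 were compared between the ages. Reads of its 2 antisense genes cannot be told apart from those of Selp with certainty, as stated above. Whether these genes changed apart from Selp was not tested. Of 12 tested genes within 250 kb, 2 rose, against 4.69% of all genes, and these were the overlapping antisense genes, Gm16587 from 5.74 to 55.1 CPM (log2 difference 3.28, adjusted p = 1.76e-18) and Gm16548 from 7.13 to 66.8 CPM (3.25, adjusted p = 5.88e-18). Sele, the gene of E-selectin and a neighbour 57.6 kb upstream, was at 0.665 CPM in YHSC and 0.594 CPM in OHSC (log2 difference -0.14, SE 0.455, adjusted p = 0.888). F5, the coagulation factor V gene that begins 1.8 kb beyond the end of Selp, was at 14.2 and 11.7 CPM (log2 difference -0.25, SE 0.104, adjusted p = 0.0954). Around Selp, 8 of the 12 tested genes had an unadjusted p under 0.05 in edgeR, with both antisense genes among them. Around Selplg, edgeR and DESeq2 called none of 13 tested genes within 250 kb, and 5 of them had an unadjusted p under 0.05 in edgeR. In the shRNA comparisons neither tool called any of 11 tested genes around Selp or of 11 around Selplg, against 2.54% higher and 1.25% lower of all genes in culture and 1.28% and 1.12% after transplantation. The counts with an unadjusted p under 0.05 in edgeR were 6 and 1 in culture and 0 and 0 after transplantation.

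**Figure D2:**
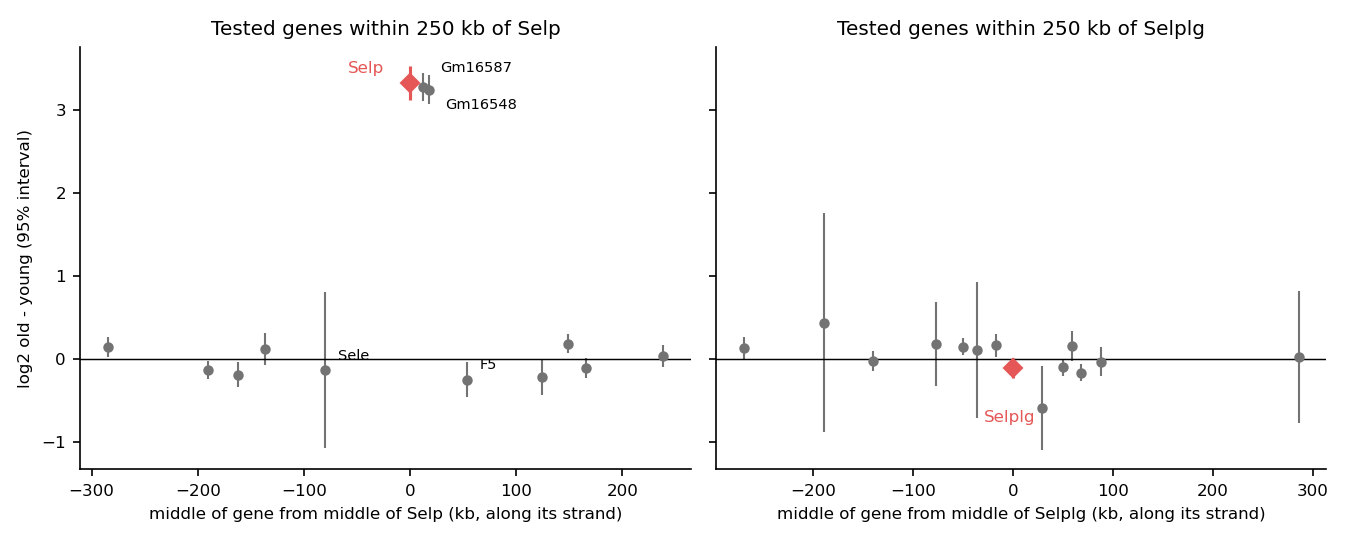
Log2 difference of OHSC against YHSC, with 95% intervals, for tested genes within 250 kb of Selp (left) and Selplg (right), by distance between gene middles along the strand of each gene. Diamonds mark Selp at 3.33 and Selplg at -0.11. Only Gm16587 and Gm16548 share the difference of Selp. They overlap Selp, and their reads cannot be told apart from those of Selp with certainty.

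At the chromatin level, the start and the first intron of Selp were more accessible in OHSC, and an intronic region with far higher accessibility was not called different. The region over exon 1 (chr1:164115019-164115831) had 4.84, 4.95, 5.41 and 4.62 CPM in YHSC and 7.2, 8, 7.27 and 7.59 CPM in OHSC. Its log2 difference was 0.60 (SE 0.13, adjusted p = 0.000202, edgeR), or 1.52-fold, just over the 1.5-fold limit, and all old libraries stood above all young ones. The region in intron 1, 5.2 kb from the start (chr1:164119803-164121173), had 5.95, 5.99, 6.31 and 6.71 CPM in YHSC and 11.2, 12.3, 9.69 and 9.9 CPM in OHSC. Here the log2 difference was 0.78 (SE 0.116, adjusted p = 2.58e-07), again without overlap. The call at exon 1 was lost, by fold and not by p, without YHSC library 4 (0.56), without OHSC library 6 (0.58) and without the filter on low counts (0.58).

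The most accessible region of Selp lay in intron 8, 20.4 kb from the start (chr1:164135134-164136131), with 33.1, 36.8, 34.9 and 39.8 CPM in YHSC and 35.9, 36.4, 37.9 and 36.6 CPM in OHSC. Its ages overlapped and its log2 difference was 0.02 (95% interval -0.10 to 0.14). A region in intron 9 had 11.2 ± 1.28 CPM in YHSC and 9.11 ± 0.879 CPM in OHSC (SD, n = 4, log2 difference -0.29, adjusted p = 0.0314). A region past the 3′ end of Selp (chr1:164150730-164152507), which covers the starts of F5 and of the antisense gene Gm16548, had 9.41 ± 1.06 and 12.8 ± 1.01 CPM (log2 difference 0.43, adjusted p = 0.000823), which is below the fold limit although the ages did not overlap. The region 5.2 kb upstream had 6.86 ± 0.642 and 7.43 ± 0.982 CPM. One further region, over exon 16, fell under the filter on low counts.

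Accessibility at Selplg did not pass the test in any of its 3 tested regions. At the start of the main transcript (chr5:113830038-113830807) the level was 5.32 ± 0.473 CPM in YHSC and 4.37 ± 0.493 CPM in OHSC (SD, n = 4, log2 difference -0.29, 95% interval -0.58 to 0.01, adjusted p = 0.13, edgeR). No old library stood above a young one there, with the highest old and the lowest young library both at 4.89 CPM. At the start of an upstream transcript (chr5:113832383-113832940) the level was 4.13 ± 0.174 and 4.2 ± 0.779 CPM. A region past the 3′ end had 2.13 ± 0.45 and 2.01 ± 0.663 CPM, and a region in intron 1 was below the filter. In total 2 of the 9 tested regions of Selp and Selplg were called higher in OHSC, against 10.1% of 89245 regions over the genome. No region was called lower by edgeR or DESeq2, against 2.9% over the genome in edgeR. The intron 9 region of Selp was the 1 lower region with an unadjusted p under 0.05 in edgeR.

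H3K27ac, given as a signal scaled to library size, followed the same split between the start of Selp and its intron 8. The peak over the Selp start (chr1:164115181-164116554) had 1.79 and 1.05 in YHSC and 4.31 and 4.14 in OHSC, so that each old to young pairing was at least 2.31. The peak in intron 8 (chr1:164135034-164136346) had 3.29 and 3.05 in YHSC and 2.81 and 3.32 in OHSC, with pairings from 0.853 to 1.09. In YHSC the peak at the start was low for its class, above 9.64% of 13392 peaks near transcript starts, whereas the intronic peak was above 89.2% of 26165 other peaks. The peak at the Selplg start (chr5:113829855-113830561) had 4.73 and 3.99 in YHSC and 3.98 and 3.47 in OHSC. A peak in intron 1 of Selplg (chr5:113824193-113824874), found in OHSC only by the peak calls of the deposited table, had 0.98 and 1.53 in YHSC and 1.65 and 2.06 in OHSC.

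By the rule of a ratio of means over 1.5 with every pairing at 1.2 or more, 1 of these 4 peaks, at the Selp start, was higher in OHSC, against 9.11% of 39557 peaks over the genome, where 2.27% were lower. With 2 libraries an age this rule is no test. In limma on log2 of the signal plus 0.1, fitted over all peaks, the Selp start had a log2 difference of 1.55 (adjusted p = 0.0447). Without YHSC library 2 or without OHSC library 1 the rule also called the intronic Selplg peak. The log2 ratio at the Selp start was 1.57, but 2.01 without YHSC library 1 and 1.24 without YHSC library 2.

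**Figure D3:**
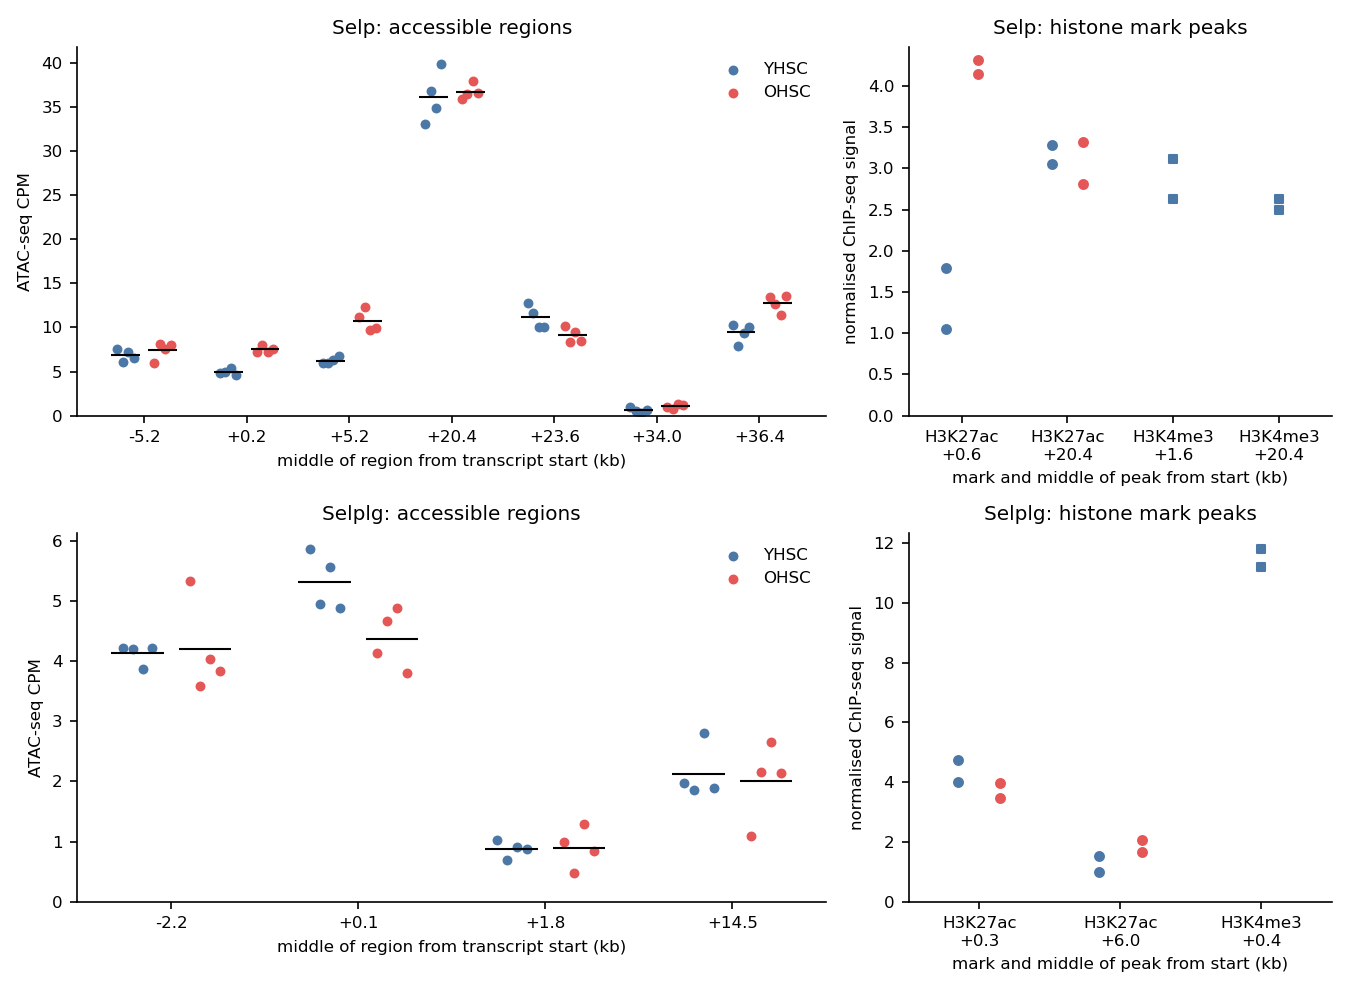
Accessibility (left, CPM, 4 libraries an age with group means as black lines) and histone mark signal (right, 2 libraries an age, circles for H3K27ac and squares for H3K4me3 in YHSC) at Selp (top) and Selplg (bottom), by distance from the start of the main transcript. OHSC lie above YHSC at +0.2 and +5.2 kb of Selp and at its H3K27ac peak at +0.6 kb, and not at +20.4 kb.

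In YHSC the start of Selp carried little H3K4me3, the mark of promoters. Its peak (chr1:164115272-164118518) had 3.11 and 2.63, above 5.17% of 14684 peaks near transcript starts, whose median was 17.4. The peak at the Selplg start (chr5:113829502-113830706) had 11.2 and 11.8, above 29% of them. Intron 8 of Selp also carried an H3K4me3 peak, with 2.49 and 2.63, above 53% of 18515 peaks away from starts. No H3K27me3 peak, the Polycomb mark, was named for either gene or overlapped either gene body among 55820 peaks. This covers called peaks only. Signal outside them was not measured here, so the genes may still carry the mark at a lower level. H3K36me3, which marks transcribed gene bodies, was listed as a domain of 42 kb over 95% of Selp and as one of 12 kb over 74.2% of Selplg, and the libraries behind these domains are not stated.

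In cultured OHSC, Selp was slightly higher with either Btaf1 hairpin than with control shRNA. The control libraries had 468 and 456 CPM, those with shRNA1 548 and 543 CPM, and those with shRNA2 546 and 541 CPM, so the hairpins lay close together above both controls. The log2 difference was 0.25 (SE 0.0283, 95% interval 0.19 to 0.30, adjusted p = 7.01e-07, edgeR), or 1.19-fold. This is under the 1.5-fold limit, and neither edgeR nor DESeq2 called it. Selplg had 228 and 222 CPM in the controls, 230 and 225 CPM with shRNA1 and 244 and 243 CPM with shRNA2, with a log2 difference of 0.08 (95% interval 0.01 to 0.14, adjusted p = 0.167). The background of calls here, at more than 1.5-fold and an unadjusted p under 0.05, was 2.54% higher and 1.25% lower of 19763 genes.

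In transplanted cells the knockdown made no detectable difference to Selp within the spread of these libraries. Controls had 307 and 275 CPM, shRNA1 240 and 340 CPM, and shRNA2 247 and 327 CPM, and both hairpins spread to either side of the controls. The log2 difference was -0.02 (SE 0.164, 95% interval -0.41 to 0.38, adjusted p = 0.992, edgeR), an interval inside the 1.5-fold limits, and it was 0.06 without control library 1, 0.09 without shRNA1 library 1 and 0.08 without shRNA2 library 1. Selplg had 149 and 137 CPM in controls, 180 and 150 CPM with shRNA1 and 148 and 164 CPM with shRNA2 (log2 difference 0.17, 95% interval -0.02 to 0.35, adjusted p = 0.716). Of 20350 genes 1.28% were called higher and 1.12% lower. Whether the response of Selp differs between culture and transplantation was not tested.

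Among the progenitors Selp fell in steps from CMP to GMP to MEP, while Selplg was high in CMP and GMP and low in MEP. Selp had 970 and 879 reads (30 and 27.1 CPM) in CMP, 192 and 156 reads (6.75 and 5.89 CPM) in GMP, and 8 and 2 reads (0.271 and 0.0682 CPM) in MEP. The 3 populations did not overlap. GMP against CMP had a log2 difference of -2.12 (SE 0.188, adjusted p = 2.18e-06), and the background was 6.24% higher and 10.5% lower of 18234 genes. Of these calls 37.3% were higher, and 19% with library size only, which moved the median of all genes from 0.008 to -0.206 on the log2 scale. MEP against CMP had -7.35 (SE 0.304, adjusted p = 1.28e-10), with 17.5% of genes higher and 29.2% lower. MEP against GMP had -5.23 (SE 0.336, adjusted p = 1.12e-08), with 16.6% higher and 27.2% lower. The size of the MEP values rests on few reads, since it was -8.63 and -6.51 against CMP and GMP without MEP library 1 and -6.70 and -4.57 without MEP library 2.

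Selplg had 424 and 390 CPM in CMP, 467 and 419 CPM in GMP, and 64.2 and 65.9 CPM in MEP. MEP was lower than CMP by a log2 difference of -2.64 (SE 0.063, adjusted p = 6e-13) and lower than GMP by -2.82 (SE 0.0634, adjusted p = 2.95e-13). GMP against CMP was 0.17 (95% interval 0.05 to 0.30, adjusted p = 0.033), below the fold limit, and it was -0.05 when only library size was used. The 3 comparisons share libraries. Beside these values, the granulocyte and monocyte markers ranged from 42.5 to 73.7 CPM in summed level in MEP, 17938 to 22083 CPM in CMP and 70125 to 71121 CPM in GMP, and the erythroid markers from 7824 to 8330, 302 to 309 and 7.28 to 10.7 CPM. Their part in the differences of Selp and Selplg was not tested.

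Sele moved apart from Selp between progenitors. It was at 2.92 ± 0.636 CPM in CMP and 6.27 ± 1.71 CPM in GMP (SD, n = 2, log2 difference 1.15, adjusted p = 0.00901, edgeR), the direction opposite to that of Selp, and it had no read in MEP. Of 12 tested genes within 250 kb of Selp, Sele was the 1 that rose in GMP against CMP, while Gm16587 and Gm16548 fell, against 6.24% and 10.5% of all genes. In MEP against CMP 5 fell, against 29.2% of all genes, namely Sele, F5, Kifap3 and both antisense genes, and Slc19a2, a thiamine transporter, rose from 24 ± 2.02 to 55.6 ± 0.973 CPM.

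**Figure D4:**
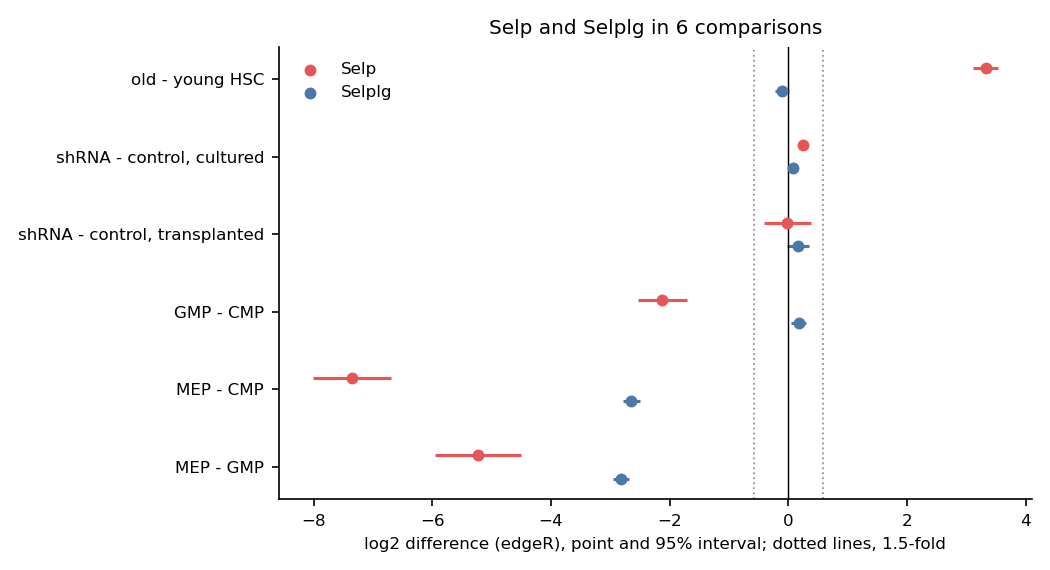
Log2 difference (edgeR, point and 95% interval) of Selp (red) and Selplg (blue) in 6 comparisons, with dotted lines at 1.5-fold. Selp stands at 3.33 in OHSC against YHSC and at -7.35, -5.23 and -2.12 between progenitors, and both genes lie within the dotted lines for both shRNA comparisons.

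Genes that make PSGL-1 and other ligands fit for selectin binding were described by a list of 17 enzymes and transporters. With age 3 of 16 tested members rose and the other 13 were not called, where 4.69% of all genes were called higher and 2.83% lower, with a median log2 difference of 0.09 against -0.007 over all genes. St3gal6, a sialyltransferase, went from 24.4 ± 1.09 (SD, n = 4) to 38.8 ± 2.45 CPM (SD, n = 8), with a log2 difference of 0.69 (adjusted p = 3.37e-09, edgeR). B3gnt3, which extends core O-glycans, went from 10.3 ± 1.36 to 15.9 ± 1.13 CPM (0.65, adjusted p = 4.37e-06). Fut7, the fucosyltransferase that completes sialyl Lewis x on leukocyte ligands, went from 10.4 ± 0.771 to 15.7 ± 2.36 CPM (0.61, adjusted p = 9.64e-05). The shRNA comparisons called none of the 16 tested members by edgeR or DESeq2, and the count with an unadjusted p under 0.05 in edgeR was 7 in culture and 1 after transplantation.

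Between progenitors, 4 of 16 of these genes rose and 8 fell in MEP against CMP, where 17.5% of all genes were called higher and 29.2% lower. In MEP against GMP 4 rose and 9 fell, against 16.6% and 27.2% of all genes. Fut7 was at 83.6 ± 5.38 CPM in CMP, 58.5 ± 4.09 in GMP and 0.784 ± 0.532 in MEP (SD, n = 2 each), and Fut4, another fucosyltransferase of leukocytes, at 35.4 ± 6.42, 54.3 ± 2.24 and 0.714 ± 0.141 CPM. St3gal6 went the other way, from 1.02 ± 0.0448 in CMP and 0.375 ± 0.431 in GMP to 67.2 ± 2.68 CPM in MEP. All of these MEP differences passed the test against both CMP and GMP. Papss2, which makes the sulfate donor, was at 17.9 CPM in CMP, 74.7 CPM in GMP and 0.885 CPM in MEP. In GMP against CMP 4 of 16 rose and 12 were not called, against 6.24% of all genes higher and 10.5% lower. The risers included Papss2 (log2 difference 2.11, adjusted p = 4.03e-08) and C1galt1c1, the chaperone of the core 1 synthase (1.23, adjusted p = 2.09e-07).

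Of 7 other proteins that can carry selectin ligands, Podxl, encoding podocalyxin, rose with age and the other 6 were not called, against 4.69% of all genes higher. Podxl went from 31.0 ± 1.35 to 48.9 ± 6.98 CPM (log2 difference 0.68, adjusted p = 2.78e-05). In MEP against CMP 1 of 7 rose and 3 fell, against 17.5% and 29.2% of all genes. Cd24a, a ligand on blood cells, rose to 686 CPM from 132 CPM. Cd34, encoding a sialomucin that also served in the sort of HSC, fell from 1010 to 1.26 CPM. Whether CD34 served in the sort of CMP and MEP too is not given here. The part of the sort in the Cd34 difference was not tested. Emcn, encoding endomucin, had 2.42 CPM in CMP and no read in MEP. In GMP against CMP edgeR called 1 of 7 lower, Emcn at 0.438 CPM, and DESeq2 called 2, against 10.5% lower over all genes in edgeR. Neither shRNA comparison called a carrier by edgeR or DESeq2, and 4 members in culture and 1 after transplantation had an unadjusted p under 0.05 in edgeR.

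Of 19 genes of signalling below PSGL-1 and of leukocyte integrins, 1 rose and 3 fell with age, against 4.69% and 2.83% of all genes. Snx20, the sorting nexin that binds the tail of PSGL-1, fell from 28.0 ± 1.92 to 10.6 ± 1.06 CPM (log2 difference -1.38, adjusted p = 2.86e-12). Fgr, a Src family kinase, rose from 5.04 ± 0.79 to 11.1 ± 1.39 CPM (1.16, adjusted p = 5.33e-08). Fcer1g, an adaptor with an ITAM motif, fell from 29 ± 2.66 to 17.5 ± 4.38 CPM (-0.70, adjusted p = 0.00641). The median log2 difference of the list was 0.004 against -0.007 over all genes. In MEP against CMP 13 of 19 fell and 2 rose, against 29.2% and 17.5% of all genes, and in MEP against GMP 13 fell and 1 rose, against 27.2% and 16.6%. Tyrobp, another adaptor with an ITAM motif, had 128 CPM in CMP, 231 CPM in GMP and 0.442 CPM in MEP. In culture, Itgam (0.375 to 1.71 CPM) rose and Itgal (8.95 to 4.85 CPM) fell with knockdown among 18 tested, against 2.54% and 1.25% of all genes. After transplantation Tyrobp (2.21 to 4.9 CPM) and Fcer1g (4.36 to 11.2 CPM) rose by the unadjusted rule among 19 tested, against 1.28% of all genes, with adjusted p of 0.538 and 0.471 in edgeR.

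P-selectin is stored with other cargo in alpha granules, and of 12 genes of that cargo and its sorting 2 rose and 2 fell with age, against 4.69% and 2.83% of all genes. Clu, encoding clusterin, rose from 46.3 ± 7.7 to 233 ± 29.4 CPM (log2 difference 2.35, adjusted p = 8.92e-08), and Vwf, the carrier of factor VIII that also fills Weibel-Palade bodies, rose from 300 ± 16.7 to 682 ± 94.1 CPM (1.21, adjusted p = 5.11e-06). Ppbp, a platelet chemokine, fell from 3.47 ± 1.05 to 1.92 ± 0.887 CPM (-0.83, adjusted p = 0.0484). In MEP against CMP 11 of 12 fell, against 29.2% of all genes. F5 and Clu, at 6.54 and 2.82 CPM in CMP, had no read in MEP, and F13a1 fell from 765 to 0.579 CPM. In GMP against CMP 2 of 12 rose and 5 fell, against 6.24% and 10.5% of all genes, among them Pf4 from 144 to 4.97 CPM and Vwf from 51.2 to 3.41 CPM. In culture Thbs1, encoding thrombospondin 1, rose from 1.3 ± 0.0444 (SD, n = 2) to 2.7 ± 1.62 CPM (SD, n = 4) with knockdown by the unadjusted rule, and the other 11 were not called, against 2.54% of all genes higher.

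**Figure D5:**
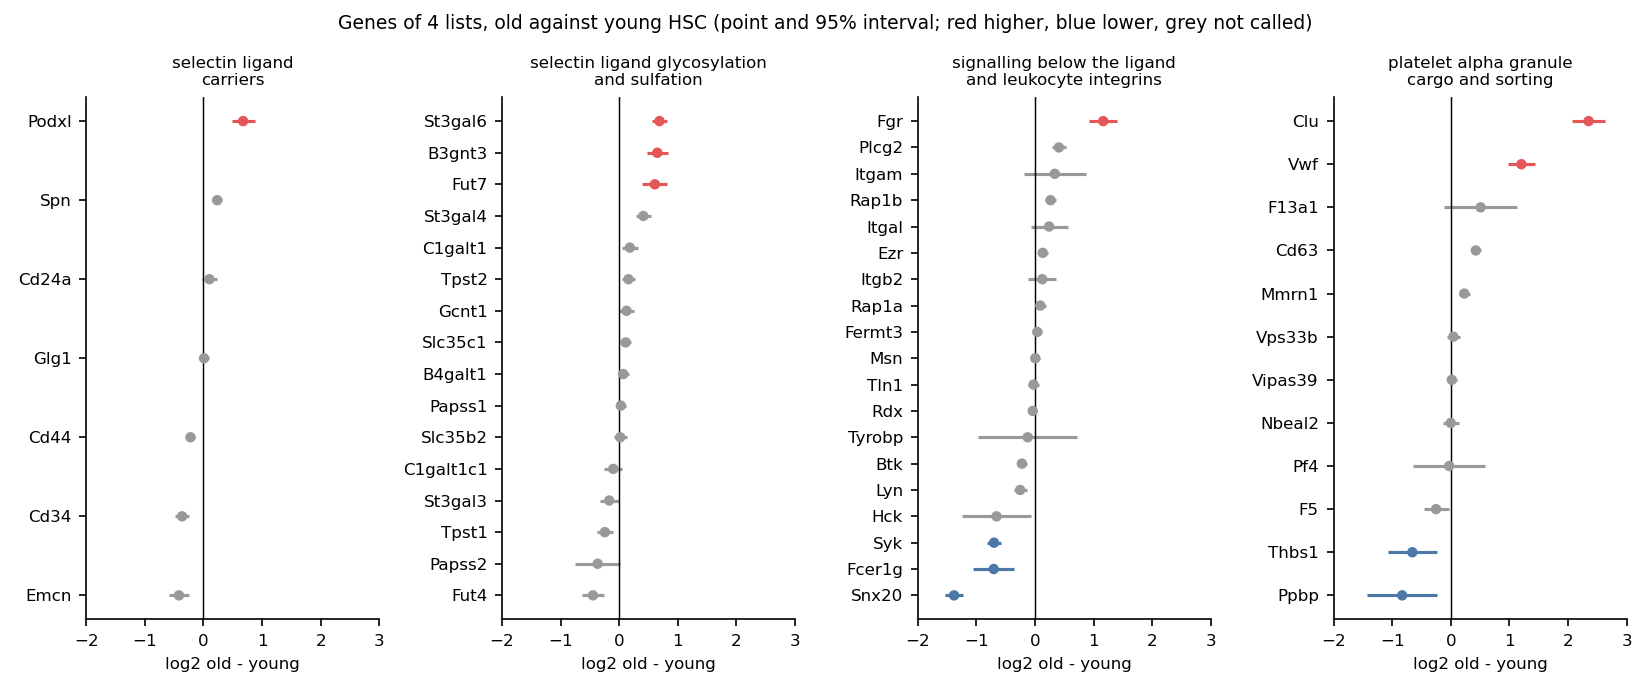
Log2 difference of OHSC against YHSC (point and 95% interval) for tested genes of 4 lists, namely 7 ligand carriers, 16 glycosylation and sulfation genes, 19 signalling and integrin genes and 12 alpha granule genes. Red genes were called higher, blue genes lower, and grey genes were not called. Most genes of each list are grey, and Clu at 2.35 is farthest to the right.

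Markers of several cell types moved with age beside Selp, where 4.69% of all genes were called higher and 2.83% lower. Of 9 megakaryocyte and platelet markers, 7 were tested, 3 rose and 1 fell. Their summed level was 236 to 277 CPM in YHSC and 640 to 760 CPM in OHSC, led in OHSC by Itgb3 (378 CPM), which encodes the beta 3 integrin. Pf4, a defining platelet chemokine, was at 24.8 CPM in YHSC and 24 CPM in OHSC. Of 8 endothelial markers, 7 were tested and 3 rose, namely Cldn5 (7.42 to 61.4 CPM), Kdr (18.1 to 40 CPM) and Plvap (1.18 to 2.13 CPM), with a summed level of 37.1 to 45.1 CPM in YHSC and 107 to 146 CPM in OHSC. Cdh5, which defines endothelium as VE-cadherin, was near 0 at 0.419 and 0.405 CPM. Of 7 erythroid markers 4 fell and 1 rose, with a summed level of 145 to 206 CPM in YHSC and 29.6 to 103 CPM in OHSC. Of 7 B cell markers 5 fell, with a summed level of 105 to 208 CPM in YHSC and 35 to 179 CPM in OHSC, so that the ages overlapped. Of 8 granulocyte and monocyte markers 6 were tested, 1 rose and 1 fell in edgeR, and their summed level was 489 to 586 CPM in YHSC and 605 to 717 CPM in OHSC. Of 7 long-term HSC markers 1 rose and 6 were not called. In sorted cells a change in the share of cells that express a gene and a change in its RNA per cell cannot be told apart, and the part of these cell types in the Selp result was not tested.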

How the data were processed

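Per the labels and the methods, RNA-seq reads were trimmed with cutadapt, aligned to mm10 with STAR and counted by gene with featureCounts on GENCODE annotation, and the authors deposited raw counts per gene. How multi-mapped reads and strand were handled is not stated in the sources used, and the labels and the methods name different library kits for YHSC and OHSC. ATAC-seq reads were aligned with BWA and deposited as counts in consensus MACS regions. The authors deposited ChIP-seq peak tables with a signal for each library, scaled to one fixed library size. The fold change columns of those tables are the authors' own comparisons and were not used. A further 8 columns of single libraries were not used.

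The 92 spike-in rows were left out of library sizes and tests. Counts were filtered with filterByExpr (ATAC-seq, over 1.5 CPM in at least 4 libraries) and fitted with the edgeR 4.0.16 quasi-likelihood test (TMM, robust, Benjamini-Hochberg adjustment) within each experiment in R 4.3.3. For shRNA, the mean of both hairpins was set against control. Calls needed 1.5-fold and an adjusted p under 0.05 (shRNA, unadjusted p under 0.05, as in the study, and ATAC-seq, adjusted p under 0.01). Printed levels use TMM factors over all 30 RNA-seq libraries, and lengths come from GENCODE M21 exons. Of the 2 genes, 1 was matched in the RefSeq promoter table. ATAC-seq regions within 5 kb of a gene body were taken. DESeq2 1.42.0 and limma 3.58.1 served as alternatives. The scripts were tested on simulated data. No 2 libraries of a group agreed within sampling noise (chi-square per degree of freedom at least 4.417). Young RNA-seq samples were pools of mice and transplanted samples pools of recipients. For cultured cells and progenitors the sources used do not state separate cultures or animals, so p-values there measure only the spread between these samples, which may be technical. ChIP-seq of the progenitors, H3K9me3 and Hi-C were not analysed here, and 1 gene beside Selp is not reported here.

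The members and gene lists were chosen with earlier results of these data known. From each list the called genes with the largest differences, at most 3 for each comparison, were eligible to be named, with the 5 genes most like each member and called neighbours within 250 kb. Sele, F5 and Tmod3 among them, and the marker genes, were described after their values were seen.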

Additional observations from a re-analysis of the deposited data

Results flagged for a closer look

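In YHSC, 1 of the 4 libraries stood apart in accessibility past the 3′ end of Selplg, at 2.8 CPM, with a gap of 0.883 of the group's range to its nearest neighbour. In the region at the upstream start of Selplg, the lowest of the 4 YHSC libraries was at 3.87 CPM, with a gap of 0.943 of the range. These were the 2 outlying values in 26 groups of libraries examined, and chance gives about 1 in 20.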

How the results depend on the processing

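Over 154 recomputed RNA-seq differences, 150 kept their direction and side of the threshold. Leaving out single libraries gave Selp a log2 difference of 3.24 to 3.45 with age, and -0.16 to 0.09 after transplantation, where it became positive without control library 1 (0.06), shRNA1 library 1 (0.09) or shRNA2 library 1 (0.08). With library size only, Selplg in GMP against CMP was -0.05. With library size only, 6 of 11 groups kept their place in the order of Selp and 7 of 11 in that of Selplg.

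Replicates of the same number did not deviate together (r from -0.166 to 0.03), so the numbers only name libraries. With the replicate number as a block, which for age used only replicates 1 to 4 of each age, Selp with age was 3.38 and Selplg -0.16. The same libraries without the block, an alternative chosen after seeing the data, gave 3.37 and -0.15. The block changed no call of either gene in any comparison.

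The count of accessible regions called was 1 with no CPM filter and 1 to 2 without single libraries. Uncalled regions near 0 changed sign. Without the CPM filter intron 8 of Selp was at 0 and the upstream start of Selplg at -0.01. Without single libraries they ranged from -0.02 to 0.07 and from -0.1 to 0.1, and the region past the Selplg end from -0.23 to 0.12. For intron 8 the negative value came without YHSC library 1. The upstream start was at -0.02 without YHSC library 3 and -0.1 without OHSC library 5, and the region past the end at 0.09 and 0.12 without the same libraries. The causes were not tested. H3K27ac calls at the 4 peaks numbered 1 to 2 without single libraries. Over the genome 4500 H3K27ac peaks were called, against 342 with limma, 2300 with 0.5 added to every signal and 8152 without YHSC library 1. After transplantation 489 genes were called, 1086 with no filter on low counts and 768 with shRNA2 alone. No paired analysis of ATAC-seq was possible because the ages share no replicate number. Selp in MEP rests on 8 and 2 reads, and groups of 2 libraries limit every progenitor and shRNA comparison.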
